A study of Mus musculus with 6 samples.

Results

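The genes described here form the nuclear end of canonical Wnt signalling, measured in fibroblasts that carry the Delta9 form of Lmna. Lmna encodes lamin A and lamin C, structural proteins of the inner nuclear envelope. They are the DNA-binding TCF/LEF factors Lef1, Tcf7, Tcf7l1 and Tcf7l2, their coactivator beta-catenin (Ctnnb1), and the target genes Axin2, Nkd1, Ccn4, Ccn5 and Sp5. Members were taken by name, as the probe sets annotated to exactly 1 gene symbol in the list. Of these 10 genes 9 had such a probe set, with 21 probe sets in all, among 18193 genes tested. Tcf7 had none under its name and was not analysed here. Each gene is given by its probe set of highest mean over the 6 samples, and the other probe sets serve as a check.

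The samples were primary mouse fibroblasts of strain C57bl6X129S3/J, 3 labelled Delta9 and 3 labelled wild-type (WT), derived from siblings. All were at passage 3 and had been kept without serum for 72 hours, which slows proliferation. The sources used here do not say how many animals the samples came from, nor whether Delta9 cells carry 1 or 2 copies of the allele, and they call the cells both adult and post-natal. The p-values therefore measure the spread between these samples, which may be technical. Published work on Delta9 cells reported lower matrix gene expression and lower Wnt signalling, and the comparison asks how the nuclear effectors and targets of the pathway differed here.

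In canonical Wnt signalling, a Wnt ligand bound to its Frizzled receptor stops the breakdown of beta-catenin, which enters the nucleus and binds TCF/LEF proteins on DNA. Without beta-catenin, TCF/LEF proteins recruit Groucho/TLE corepressors and hold targets down. Signalling is thus switched largely through the beta-catenin protein, which arrays of RNA do not measure, and target genes such as Axin2 serve as RNA readouts. In fibroblasts the pathway is known for its part in skin and bone development and in matrix production.

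TCF/LEF proteins bind the letters CTTTGAT, or the core CTTTG within it. Promoter windows of the 250 bases before the transcription start were read from RefSeq (GRCm38.p6) and searched for both on either strand. Windows were found for 8 of the 10 genes, 14 in all because of alternative starts; Ccn4 and Ccn5 were not among them. The long form occurred in 1 gene, Sp5, and in 3.21% of all 32851 windows of this length. The core occurred in at least 1 window of 4 genes, Lef1, Tcf7l1, Tcf7l2 and Sp5, and in 48.6% of all windows. Some genes have several windows, so these counts of genes and shares of windows are not directly comparable. Below are the window of Sp5, as the one with the long form, and that of Axin2, the most used readout of the pathway, without either form. They lie at chr2:70474673-70474922 and chr11:108920099-108920348, both on the plus strand, and are written 5′ to 3′ with the matches on either strand in capitals.
Sp5: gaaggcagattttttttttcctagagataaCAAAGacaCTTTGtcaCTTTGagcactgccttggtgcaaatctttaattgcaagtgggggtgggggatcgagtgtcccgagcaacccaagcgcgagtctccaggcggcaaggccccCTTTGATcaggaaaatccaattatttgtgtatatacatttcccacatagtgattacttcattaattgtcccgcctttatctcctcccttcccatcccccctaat
Axin2: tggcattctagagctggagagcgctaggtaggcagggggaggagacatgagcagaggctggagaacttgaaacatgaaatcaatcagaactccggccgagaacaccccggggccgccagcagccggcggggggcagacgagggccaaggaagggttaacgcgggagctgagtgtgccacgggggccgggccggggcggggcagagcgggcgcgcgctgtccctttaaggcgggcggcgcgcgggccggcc
In Sp5 the long form begins 104 bases before the start, and the other core matches begin 204, 212 and 220 bases before it. A match describes these letters only and is no evidence of binding, and the array values below carry no information on it.

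None of the 9 measured genes differed between Delta9 and WT past an adjusted p of 0.05 (limma, Benjamini-Hochberg over all genes). The count at an unadjusted p under 0.05 was 1, Ccn5, which was 2.19-fold lower in Delta9; with the macrophage covariate described below it was 0. Over all genes, 0.0605% passed the adjusted threshold, 0.055% lower and 0.0055% higher, and 10.6% the unadjusted one. Mean values were lower in Delta9 for all 9 genes, where 53.2% of all genes were lower; the direction was not kept under every setting for Tcf7l2, Ctnnb1, Axin2 and Sp5. The median difference of the 9 genes was -0.17, against -0.015 over all genes (log2, Delta9 minus WT). The groups did not overlap for 1 of the 9, Ccn5, lower in Delta9, which was the case for 9.99% of all genes (17.3% in either direction).

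**Figure D1:**
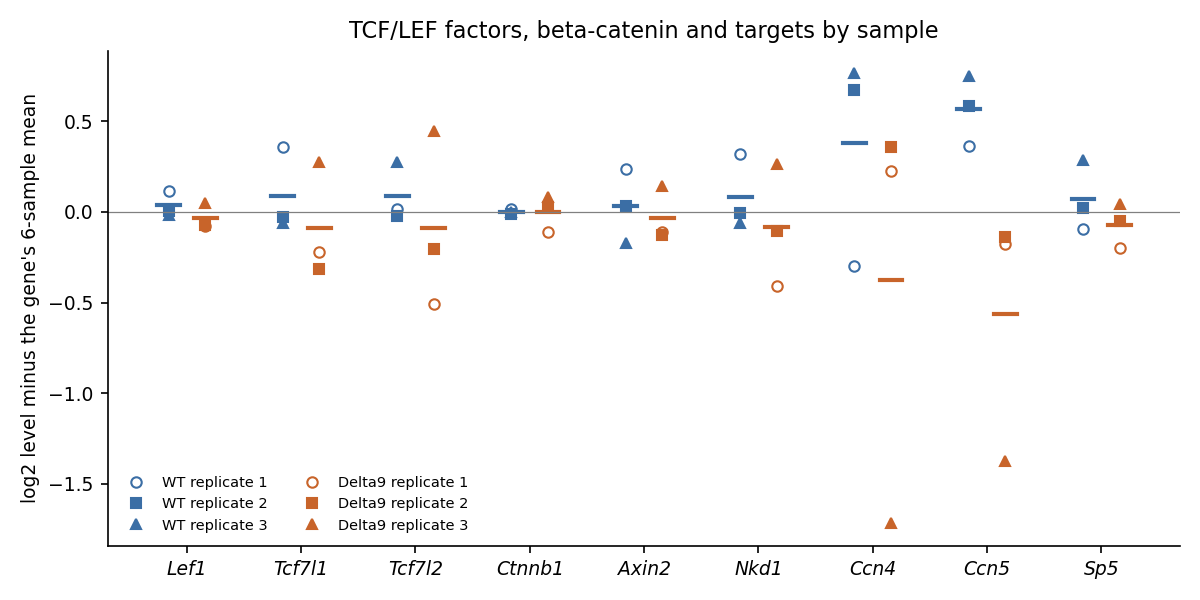
The log2 level of each of the 9 measured genes in each sample, relative to the gene's mean over the 6 samples; blue symbols are WT, orange symbols Delta9, symbol shapes give the replicate and bars the group means (n = 3). The WT and Delta9 symbols separate for Ccn5, and Delta9 replicate 3 lies far below the other samples for Ccn4 and Ccn5.

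The Delta9 label was checked on Lmna, whose brightest probe set read 8.35, 8.89 and 8.78 in WT and 7.07, 6.95 and 6.11 in Delta9 (log2; here and below, values are in the order of replicates 1, 2 and 3). The groups did not overlap, and the difference of -1.96 (SE 0.28) missed the threshold with an adjusted p of 0.0899. Of its other 4 probe sets, tested over all probe sets, 1457670_s_at passed with -3.42 (SE 0.22, adjusted p 0.00421), and 1425472_a_at with -2.05 (SE 0.32), 1426868_x_at with -0.54 (SE 0.17) and 1452212_at with 0.22 (SE 0.16) did not. A probe set outside the deleted or changed stretch would not check the label, and the positions of these were not examined. All 11 measured fibroblast markers had a mean level of at least 7.54 log2. In value 10 of the 11 were lower in Delta9, with a median of -0.23, and their mean per array ran from 11.2 to 11.3 in WT and from 10.8 to 11.0 in Delta9, without overlap. The part of this shift in the values of the Wnt genes was not tested. A pair of arrays of different genotype had the least spike-in signal. Poly-A spike-in transcripts averaged 5.20 on Delta9 replicate 3 and 4.85 on WT replicate 1, against 5.64 to 6.10 on the other 4. The step from the lower to the higher arrays was 0.44, and that between the 2 lower arrays was 0.35. The split of the arrays used below was placed at the 0.44 step, the largest among these arrays. The difference between 3′ and 5′ control probe sets, a sign of RNA quality, was lowest on Delta9 replicates 1 and 2. It was 0.25 and 0.23 there for Gapdh, against 0.49 to 0.57 on the other 4 arrays, and 0.68 and 0.51 for beta-actin, against 0.82 to 1.41. Among the 4 arrays with more spike-in signal it cannot be told apart from genotype. All 14 macrophage markers were higher in Delta9, 6 of them without overlap, where 7.27% of all genes were. Their mean per array ran from 7.63 to 9.83 in WT and from 9.71 to 10.3 in Delta9 (log2). The lowest of them, Itgam, averaged 4.17 over the 6 arrays. The mean of these markers on each array was therefore also added to the fit as a covariate. For the 9 measured genes its result is given where it moved a difference by over 1.5 times or, for Ccn5, moved an unadjusted p past 0.05. For single genes of the other lists it is not reported here, whether or not it moved them. Keratinocyte markers averaged 3.58 to 3.83 on every array. Skeletal muscle markers averaged 4.72 to 6.17, endothelial markers 4.23 to 5.22, and melanocyte and Schwann markers 4.64 to 4.84. Single genes of these lists were brighter, such as Acta1 with a mean of 7.69 and Sox10 with 6.71. The part of such cells in the values of the Wnt genes was not tested.

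Lef1, a TCF/LEF factor that acts mainly as an activator with beta-catenin, had low values in both groups. Its brightest probe set read 2.97, 2.98 and 3.10 in Delta9 and 3.16, 3.06 and 3.03 in WT (log2), at percentile 27.9 of level among all genes tested. The groups overlapped, and the difference was -0.071 (SE 0.091) with a 95% interval from -0.28 to 0.14 (adjusted p 0.814). It was -0.031 without WT replicate 1, -0.11 without Delta9 replicate 3 and -0.14 (SE 0.11) with the macrophage covariate. A second, dimmer probe set, 1421299_a_at, read 2.27, 2.15 and 1.99 in Delta9 and 2.29, 2.40 and 2.31 in WT. Here every Delta9 value lay below every WT value, narrowly, and the difference of -0.20 (SE 0.088) had an adjusted p of 0.570 over all probe sets. At this level the table, which holds no detection calls, cannot show whether Lef1 was expressed.

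Tcf7l1, known mainly as a repressor of Wnt targets, lay at percentile 86.9 of level. It read 7.72, 7.62 and 8.21 in Delta9 and 8.30, 7.91 and 7.88 in WT. Delta9 replicate 3 and WT replicate 1 were the highest of their groups, and the groups overlapped. The difference was -0.18 (SE 0.20), with a 95% interval from -0.66 to 0.30 and an adjusted p of 0.790. The difference was -0.043 without WT replicate 1, -0.36 without Delta9 replicate 3 and -0.42 (SE 0.22, adjusted p 0.577) with the macrophage covariate. The other probe set of Tcf7l1, 1450117_at, differed by -0.30 (SE 0.25).

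Tcf7l2, the TCF/LEF factor known from gut stem cells and glucose control, lay in the middle of the scale, at percentile 49.7. It read 4.25, 4.56 and 5.21 in Delta9 and 4.78, 4.74 and 5.04 in WT. Delta9 replicate 3 was the highest of all 6 samples and the other Delta9 samples were the lowest. The difference was -0.18 (SE 0.25, adjusted p 0.833), with an interval from -0.77 to 0.41. It was 0.032 without Delta9 replicate 1 and -0.45 without Delta9 replicate 3, neither past the threshold. Its 4 probe sets ran from -0.28 for 1429427_s_at to 0.14 for 1426639_a_at, and the RNA forms they cover were not determined here.

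Beta-catenin RNA, on its brightest probe set, showed the smallest difference of the 9 genes. That probe set, 1420811_a_at, read 11.4, 11.5 and 11.5 in Delta9 and 11.5, 11.4 and 11.5 in WT, at percentile 99.4. The group means were 11.46 ± 0.098 in Delta9 and 11.46 ± 0.015 in WT (log2, SD, n = 3). The difference was -0.0020 (SE 0.090) with an interval from -0.21 to 0.21, and -0.020 (SE 0.11) with the macrophage covariate. The dimmer probe sets of Ctnnb1 went the other way. Probe set 1430533_a_at read 5.32, 5.87 and 5.48 in Delta9 and 5.11, 5.15 and 4.84 in WT. These groups did not overlap, and the difference of 0.53 (SE 0.19) did not pass (adjusted p 0.507 over all probe sets). Probe set 1450008_a_at differed by 0.23 (SE 0.20), and the mean of the 3 probe sets by 0.25 (SE 0.13).

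**Figure D2:**
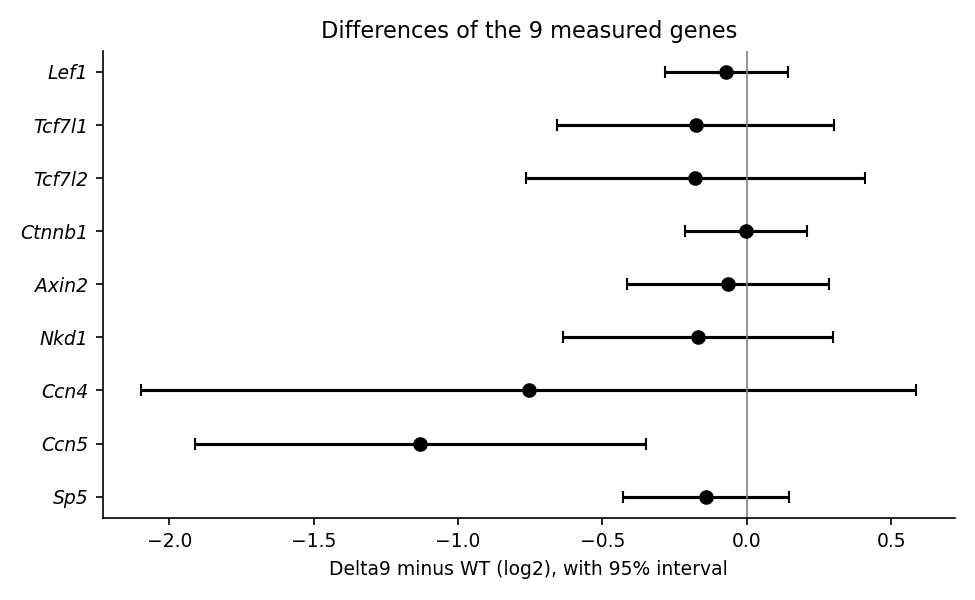
Difference between the group means of Delta9 and WT (log2) for each of the 9 measured genes, as points with 95% intervals from limma (n = 3 per group). The interval of Ccn5 lies below 0, from -1.91 to -0.35, and the other 8 intervals include 0.

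Axin2 and Nkd1 encode negative feedback inhibitors of the pathway, a scaffold for beta-catenin breakdown and an inhibitor that binds Dishevelled. Axin2 read 3.70, 3.69 and 3.96 in Delta9 and 4.05, 3.85 and 3.64 in WT, with a difference of -0.065 (SE 0.15, adjusted p 0.905). The lowest of its 6 values was a WT sample, and the interval ran from -0.42 to 0.29. Without WT replicate 1 the difference was 0.038 (adjusted p 0.956), without WT replicate 3 it was -0.17, and with the macrophage covariate -0.28 (SE 0.14, adjusted p 0.573). Its dimmer probe set differed by -0.068 (SE 0.13).

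Nkd1 read 3.47, 3.77 and 4.14 in Delta9 and 4.20, 3.88 and 3.82 in WT, a difference of -0.17 (SE 0.20, adjusted p 0.795). Delta9 replicate 3 lay among the WT samples. Its other 3 probe sets were lower as well, by -0.36, -0.24 and -0.16. For 1429506_at, with -0.36 (SE 0.17), the Delta9 values of 3.67, 3.35 and 3.83 lay just below the WT values of 4.16, 3.84 and 3.94, and the adjusted p was 0.573 over all probe sets. The values of all 4 were thus lower in Delta9, and none passed the threshold. The chosen probe set differed by -0.0057 without Delta9 replicate 1, by -0.34 without Delta9 replicate 3 and by -0.39 (SE 0.23) with the macrophage covariate.

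Sp5, a zinc finger repressor induced directly by beta-catenin, was dim, at percentile 20.1. It read 2.51, 2.66 and 2.76 in Delta9 and 2.62, 2.74 and 3.00 in WT. The groups overlapped, and the difference was -0.14 (SE 0.12, adjusted p 0.717). It was 0.018 (SE 0.13) with the macrophage covariate, -0.033 without WT replicate 3 and -0.22 without WT replicate 1.

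**Figure D3:**
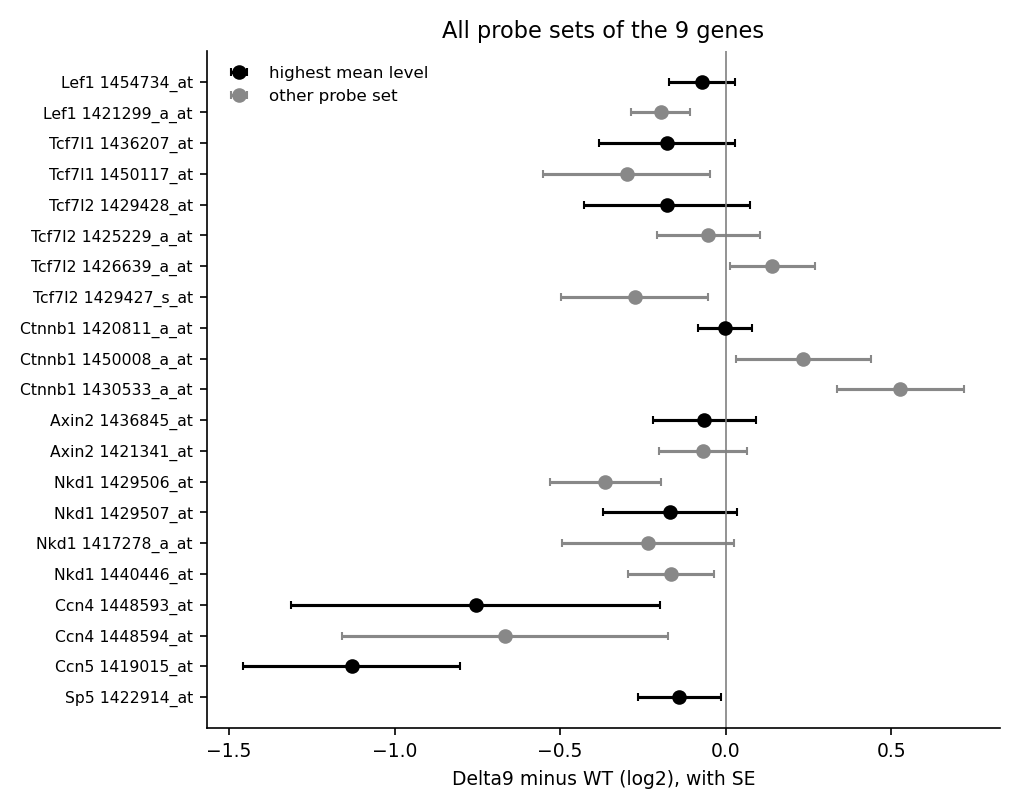
Difference between Delta9 and WT (log2, with SE, n = 3 per group) for the 21 probe sets of the 9 genes; black points are the probe set of highest mean level of each gene and grey points the other 12. In all 18 lie below 0 and 3 above it, and those of Ctnnb1 and Tcf7l2 fall on both sides.

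Of the 12 other probe sets, 9 had the same sign as the one chosen for their gene. The exceptions were the dimmer probe sets of Ctnnb1 and 1 of Tcf7l2. Ccn5 and Sp5 had a single probe set and no such check.

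The larger differences were those of Ccn4 and Ccn5, formerly Wisp1 and Wisp2, which encode secreted proteins of the CCN family that bind matrix and growth factors. Ccn5 read 8.45, 8.49 and 7.26 in Delta9 and 8.99, 9.21 and 9.38 in WT. All 3 Delta9 samples lay below all 3 WT samples, and Delta9 replicate 3 differed by -1.21 log2 from the mean of the other Delta9 samples. The means were 8.07 ± 0.70 and 9.19 ± 0.19 (log2, SD, n = 3). The difference was -1.13 (SE 0.33), with an interval from -1.91 to -0.35, and its adjusted p of 0.322 missed the threshold. In these cultures, fewer cells that express the gene and less RNA per cell cannot be told apart.

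Because its groups did not overlap, the direction of Ccn5 could not change with a sample left out. The difference then ran from -1.34 to -0.72, the latter without Delta9 replicate 3. Among the 4 arrays with more spike-in signal it was -0.83 (SE 0.11, adjusted p 0.0686), and between Delta9 replicate 3 and WT replicate 1 it was -1.74, a pair with no replicate. With the split of the arrays as a block the adjusted p was 0.0578, still short of the threshold. With the macrophage covariate the difference was -0.79 (SE 0.40, adjusted p 0.570), and the unadjusted p rose from 0.0110 to 0.0915.

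Ccn4 read 10.0, 10.1 and 8.07 in Delta9 and 9.49, 10.5 and 10.5 in WT. Delta9 replicate 3 was the lowest sample, WT replicate 1 the next, and the groups overlapped. The difference of -0.75 (SE 0.57, adjusted p 0.677) was -0.085 (SE 0.31) without Delta9 replicate 3, -1.12 without Delta9 replicate 2 and -0.047 (SE 0.64) with the macrophage covariate. Among the 4 arrays with more spike-in signal it was -0.42 (SE 0.091, adjusted p 0.146). The second probe set of Ccn4 differed by -0.67 (SE 0.49), with the same low sample, 8.17 in Delta9 replicate 3.

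For several genes Delta9 replicate 3 and WT replicate 1 thus lay at the edge of their groups, low for some genes and high for others. The same arrays had the highest macrophage marker mean of their groups, 10.3 on Delta9 replicate 3 and 9.83 on WT replicate 1. The array split and the macrophage covariate are therefore not separate checks. Relative to the other samples of their group, both arrays were lower for Ccn4, by -2.01 and -1.02, and for Ccn5, by -1.21 and -0.30 (log2, Delta9 and WT in turn). Both were higher for Tcf7l1, by 0.54 and 0.40, for Nkd1, by 0.52 and 0.35, and for Axin2, by 0.27 and 0.31. The shifts of Lef1 and Ctnnb1 were at most 0.13. For Tcf7l2 and Sp5 the shifts had opposite signs in the 2 groups. The shifts had the same sign in both groups for 7 of the 9 genes and for 66.5% of all genes.

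**Figure D4:**
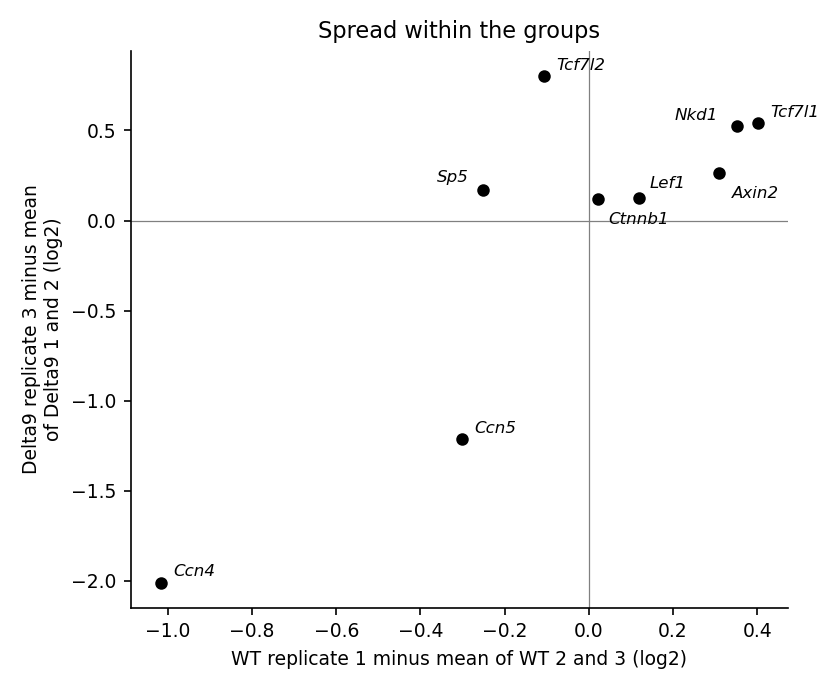
For each of the 9 genes, the level of WT replicate 1 minus the mean of the other WT samples (horizontal axis, log2) against the level of Delta9 replicate 3 minus the mean of the other Delta9 samples (vertical axis, log2). Ccn4 and Ccn5 lie at the lower left, and Tcf7l1, Nkd1 and Axin2 at the upper right.

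Compared within each part of the arrays, 6 of the 9 genes were lower in Delta9 in both, where 32.6% of all genes were. A gene lower in both parts is also lower over the 6 samples, as all 9 genes were, so this is no separate result. Of all genes, 9677 were lower over the 6 samples and 5928 in both parts. The 6 genes were Lef1, Tcf7l1, Axin2, Nkd1, Ccn4 and Ccn5. Tcf7l2 differed by -0.48 among the 4 arrays with more spike-in signal and by 0.43 in the remaining pair. Sp5 differed by -0.28 and 0.14, and Ctnnb1 by -0.035 and 0.064.

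The genes nearest to a member over the 6 samples were found by the root mean square distance of mean-centred log2 values. Nearest to Ccn5 were Hsd11b1, which encodes an enzyme that activates glucocorticoids, at 0.097, Trib2, a pseudokinase gene, at 0.15, and Itga1, the gene of a collagen-binding integrin subunit, at 0.15. Hsd11b1 read 6.56, 6.52 and 5.15 in Delta9 and 6.84, 7.27 and 7.44 in WT. Nearest to Ccn4 were Rasl11b at 0.18, the chemokine gene Cx3cl1 at 0.19 and the transcription factor gene Foxs1 at 0.22. For Sp5 the nearest were Clhc1, Chrne and Gm10044, at 0.027 to 0.030, whose mean levels in either group were 2.36 to 3.02 log2, as dim as Sp5.

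The other CCN genes were lower in Delta9 as well, 4 of 4 in value, with a median of -0.80. By limma 0 passed the adjusted threshold, and 2 had an unadjusted p under 0.05, where 10.6% of all genes did. Ccn3, formerly Nov, read 11.0, 10.8 and 11.2 in Delta9 and 11.8, 11.6 and 11.7 in WT, without overlap, and differed by -0.69 (SE 0.13, adjusted p 0.176). Ccn1, known as a target of YAP and serum response factor, read 10.5, 10.3 and 9.50 against 11.0, 10.9 and 11.2, also without overlap. It differed by -0.91 (SE 0.25, adjusted p 0.297). Ccn6 differed by -0.18 (SE 0.11) and lay at percentile 7.80 of level. Ccn2, connective tissue growth factor and a target of the same factors, was named though not among the 3 of lowest p. It read 12.3, 12.1 and 9.80 in Delta9 and 12.1, 12.3 and 12.5 in WT, with overlap. The difference of Ccn2 was -0.93 (SE 0.60, adjusted p 0.624). Delta9 replicate 3 was again the lowest, as for Ccn4 and Ccn5.

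Of 31 other Wnt target genes measured, 20 had lower and 11 higher values in Delta9, with a median of -0.089. None passed the adjusted threshold (limma); 7 were lower and 0 higher at an unadjusted p under 0.05, where 6.06% and 4.54% of all genes were. The groups did not overlap for 6, all lower, which was the case for 9.99% of all genes. The lowest p was that of Irs1, an adaptor of the insulin receptor, which read 8.07, 8.18 and 8.04 in Delta9 and 9.05, 8.77 and 9.23 in WT. It differed by -0.92 (SE 0.15, adjusted p 0.123). Msx1, a homeobox gene of limb and face, differed by -0.67 (SE 0.15, adjusted p 0.222), and Wif1, a secreted Wnt inhibitor, by -0.40 (SE 0.085) at the very bottom of the scale. Znrf3, Rnf43, Myc and Ccnd1 were added after their values were seen. Znrf3, a membrane ligase that removes Frizzled receptors, differed by -0.58 (SE 0.13, adjusted p 0.222), and its paralogue Rnf43 by -0.013 (SE 0.11). They lay at percentiles 33.5 and 18.1 of level, where the table cannot part low expression from none. The growth targets Myc and Ccnd1 differed by -0.057 (SE 0.34) and -0.022 (SE 0.31). Myc read 5.95, 5.92 and 4.78 in Delta9 and 5.27, 5.73 and 5.82 in WT. Ccnd1 read 9.65, 9.59 and 8.50 against 9.54, 9.18 and 9.09. For both, Delta9 replicate 3 was the lowest sample, and Delta9 replicates 1 and 2 lay above every WT value.

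**Figure D5:**
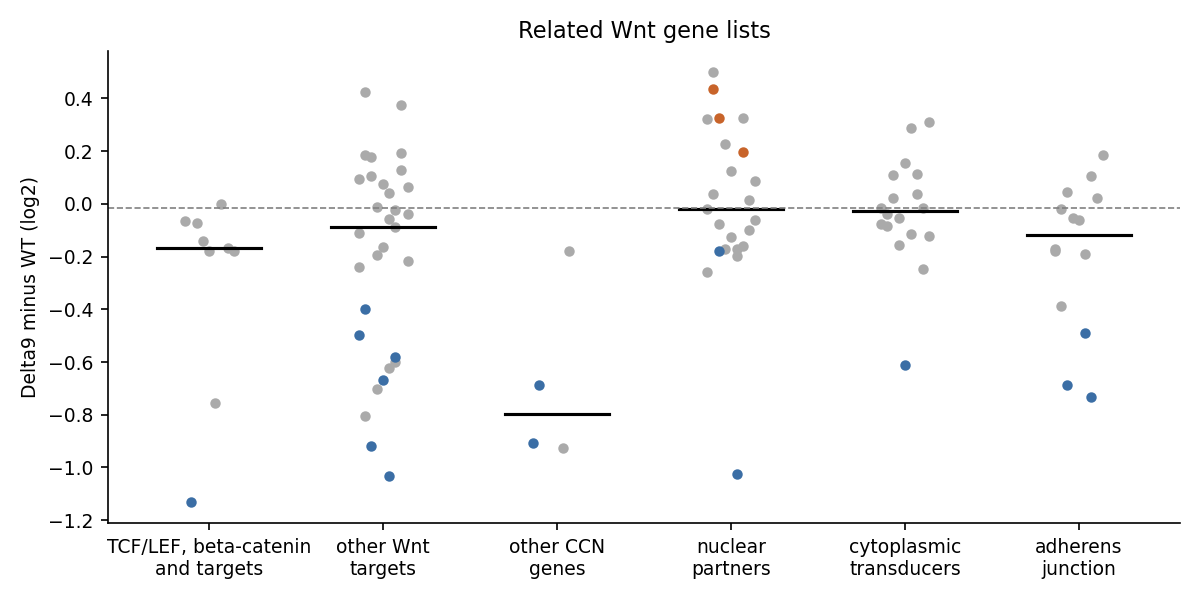
Difference between Delta9 and WT (log2) for each measured gene of 6 groups; blue points are genes whose Delta9 samples all lie below the WT samples, orange points the reverse, and grey points overlap. Black bars are group medians and the dashed line the median of all genes, -0.015; no point passed the adjusted threshold.

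The nuclear partners of TCF/LEF and beta-catenin were split, 12 lower and 11 higher of 23 in value, with a median of -0.018. By limma 0 passed, with 2 lower and 2 higher at an unadjusted p under 0.05, where 6.06% and 4.54% of all genes were. Both directions occurred among the Groucho/TLE corepressors. Tle2 read 3.84, 4.08 and 4.56 in Delta9 and 5.29, 4.93 and 5.33 in WT, without overlap. It differed by -1.02 (SE 0.22, adjusted p 0.222), or 2.03-fold. Tle3 read 7.77, 7.92 and 7.79 in Delta9 and 7.49, 7.34 and 7.35 in WT, again without overlap. It differed by 0.43 (SE 0.13, adjusted p 0.320). Pygo1, a beta-catenin cofactor, differed by -0.18 (SE 0.068) and lay at percentile 4.62.

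The destruction complex and cytoplasmic transducers, 11 lower and 7 higher of 18 in value, had a median of -0.027, and 0 passed in limma. The 1 gene with an unadjusted p under 0.05, where 10.6% of all genes had one, was Dvl1, a Dishevelled protein that relays the receptor signal. It read 6.95, 6.88 and 6.83 in Delta9 and 7.24, 7.38 and 7.87 in WT. It differed by -0.61 (SE 0.19, adjusted p 0.342). Dvl3 differed by 0.29 (SE 0.14) and Csnk1a1, the casein kinase that primes beta-catenin for breakdown, by -0.25 (SE 0.13).

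Beta-catenin also links cadherins to actin at cell contacts. The 14 genes of the adherens junction taken here were cadherins, catenins other than beta-catenin, and vinculin. Of these 14 genes 10 had lower values in Delta9, with a median of -0.12, and 0 passed in limma. The 3 with an unadjusted p under 0.05 were all lower, where 6.06% of all genes were lower at that p and 4.54% higher. Cdh2, N-cadherin, read 6.79, 6.72 and 6.93 in Delta9 and 7.63, 7.47 and 7.54 in WT. The groups lay well apart, and the difference was -0.73 (SE 0.13, adjusted p 0.169). Cdh11, the main mesenchymal cadherin with Cdh2, differed by -0.49 (SE 0.14, adjusted p 0.297), and the actin linker Vcl, vinculin, by -0.69 (SE 0.20, adjusted p 0.321).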

How the data were processed

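RNA of 6 samples was labelled with biotin and hybridised to 1 Affymetrix array each, per the labels' protocols. The table that the authors deposited gives 45101 probe sets on a log2 scale, a base inferred from the range; how they were summarised, background corrected and normalized is not given in the sources used here. Medians of the arrays ran from 3.36 to 3.43, and the table holds no detection calls. Precision is limited by having 3 arrays in each group.

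Control probe sets, 64 in number, entered no test. Platform annotation gave 1 symbol to 34945 of the others, several to 932 and none to 9160, and 34741 of the first were matched to RefSeq by Entrez identifier with 0 symbols changed. Each gene took the probe set of highest mean, with no filter. Delta9 was compared with WT in limma 3.58.1 (R 4.3.3; lmFit, eBayes with trend; checked on simulated data), adjusted by Benjamini-Hochberg over 18193 genes at 0.05. Single probe sets were tested over all 45037. The genes and lists were chosen with earlier results of these data known. Named were all members, Lmna, genes past the threshold or else the 3 of lowest p in each related list, and the 3 genes nearest to each of the 3 members of lowest p. Ccn2, Znrf3, Rnf43, Myc and Ccnd1 were named besides. Alternatives were quantile normalization, leaving out the dimmest 40% of genes, the mean of probe sets, leaving out _x_at and _s_at probe sets, other variance settings, array weights, the replicate block, the spike-in split, a macrophage marker covariate and leaving out each sample. Promoters came from RefSeq, and figures were drawn with matplotlib 3.10.9.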

Additional observations from a re-analysis of the deposited data

How the results depend on the processing

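The count of member genes past the adjusted threshold was 0 under every alternative run (limma), and 1 at an unadjusted p of 0.05 in the main setting. At that unadjusted p it was 0 with the macrophage covariate, 2 with the spike-in split as a block, among the 4 arrays with more spike-in signal and without Delta9 replicate 3, and 1 under the other alternatives. Over the 162 alternative values of single member genes, 153 kept the direction and 9 reversed it, and 0 passed. Many of the 153 could not reverse, because the setting left the difference itself unchanged. Such were the other variance settings, the replicate block and the spike-in split as a block. Leaving out the dimmest genes, or _x_at and _s_at probe sets, also left the differences unchanged. The mean of probe sets did so for Ccn5 and Sp5, which had a single probe set. The 153 are therefore not all checks of direction. Reversed were Tcf7l2 without Delta9 replicate 1 (0.032) and on probe set 1426639_a_at (0.14), Axin2 without WT replicate 1 (0.038), Sp5 with the macrophage covariate (0.018), and Ctnnb1 without Delta9 replicate 1 (0.052), without WT replicate 1 (0.0054), on probe sets 1450008_a_at (0.23) and 1430533_a_at (0.53) and with the mean of its probe sets (0.25). The cause was not tested. With single samples left out, the difference ran from -0.45 to 0.032 for Tcf7l2, from -0.17 to 0.038 for Axin2, from -0.043 to 0.052 for Ctnnb1, from -0.34 to -0.0057 for Nkd1, from -0.36 to -0.043 for Tcf7l1, from -0.22 to -0.033 for Sp5, from -0.11 to -0.031 for Lef1, from -1.12 to -0.085 for Ccn4 and from -1.34 to -0.72 for Ccn5. Over all genes the count of 11 was 139 with array weights, 149 with the spike-in split as a block, 61 among the 4 arrays with more spike-in signal, 3 with the macrophage covariate and 48 at an adjusted p of 0.10, and ran from 1 (without WT replicate 2) to 81 (without Delta9 replicate 3) with single samples left out. With the replicate number as a block it was 0 (limma; 1348 at an unadjusted p under 0.05), and 0 for the members. Deviations of same-numbered samples correlated over genes at -0.40, 0.17 and -0.43, and not every sample correlated best with its own number. The highest correlation was 0.59, between Delta9 replicate 3 and WT replicate 1. Deviations from a mean of 3 samples are not independent, so these values cannot show whether same-numbered samples share more than a number. Dim genes (Lef1, Sp5, Axin2, Nkd1) lie where the table cannot part low expression from none.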
